A study of Mus musculus with 2 samples.

Results

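The genes described here are 7 CC chemokines, Ccl2, Ccl3, Ccl4, Ccl5, Ccl6, Ccl7 and Ccl8, and 2 CC chemokine receptors of myeloid cells, Ccr1 and Ccr2. They were chosen by name, as 9 of the 32291 genes in the deposited expression matrix, and all 9 were found there. CC chemokines are small secreted proteins that bind receptors coupled to G proteins on leukocytes and draw those cells along a gradient. Ccl2, Ccl7 and Ccl8 are known as attractants of monocytes, and CCR2 is the receptor through which monocytes leave the bone marrow and enter inflamed colon. Ccl3 and Ccl5 act on CCR1, which is carried by neutrophils, monocytes and macrophages.

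Colitis-associated colon tumors were profiled by single-cell RNA sequencing, which counts unique molecular identifiers (UMIs), each standing for 1 captured transcript. Both genotypes had floxed Mir34a alleles, the gene of a microRNA that lowers many mRNAs. The group labelled Mir34a_F/F served as the control, and the group labelled Mir34a_Mye_KO carried LysM-Cre as well, a Cre recombinase driven by the lysozyme gene promoter, which is active in macrophages and granulocytes. All mice had a C57Bl/6 background, were 6 to 10 weeks old at the start and received azoxymethane (AOM, a colon carcinogen) at 10 mg/kg together with 3 periods of dextran sodium sulfate (DSS, which injures the colon lining), at 2.5% in the first 2 periods and 2% in the last. Tumors were taken 110 days after the first AOM dose. For each genotype, 6 to 8 tumors of 3 female mice were pooled into 1 library, and the cells were not assigned to mice. Differences between the genotypes therefore have no replicate check, no test was possible, and each interval given is a 95% interval that covers counting error only. The primary transcript of Mir34a, the gene targeted, had 133 UMIs in macrophages of the library labelled Mir34a_F/F (0.0723 UMIs per 10000). In those of the library labelled Mir34a_Mye_KO it had 462 UMIs (0.111). Whether the deletion removes the part of this transcript that was counted is not given in the sources used here. The higher value is therefore not a check of the labels. The mature form had 0 UMIs in macrophages, neutrophils and T cells of both libraries, which tells nothing of the deletion. Lyz2, the gene that holds the LysM-Cre insertion, was lower in the library labelled Mir34a_Mye_KO, at 1.44 and 0.370 UMIs per 10000 in macrophages and 0.245 and 0.0773 in neutrophils, which is the direction of the labels, but it was also lower in T cells (0.0448 and 0.0159). These genes do not settle the labels, so every direction given here rests on the labels.

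The matrix held 20312 cells and 147109016 UMIs in the library labelled Mir34a_F/F and 18571 cells and 193133086 UMIs in the library labelled Mir34a_Mye_KO. The median cell had 4787 and 7716 UMIs, and in each of the 11 deposited cell types the second library was the deeper, by 1.11-fold to 5.69-fold in the median. A level is therefore the UMIs of a gene per 10000 UMIs in a cell, averaged over the cells of a type. Shares of cells with a UMI are given beside the share after each cell was thinned to 1000 UMIs. The markers of 9 of the 11 types were highest in their own type in both libraries. The exceptions were basophils, with 3 of 6 markers, and epithelial cells, with 4 of 6. The basophil group had 48 and 40 cells, and its summed level of 6 neutrophil markers was 460.7 and 397.5 UMIs per 10000. Its mast cell markers summed to 48.3 and 189.9 and its own basophil markers to 34.8 and 33.9, so every basophil value below comes from a mixed group. The 96 barcodes found in both libraries were 0.473% and 0.517% of their cells.

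The members lie in clusters of related genes. The 7 ligand genes are on chromosome 11 and both receptor genes are on chromosome 9 (GRCm38, the build called mm10). Ccl2 (chr11:82035571-82037453), Ccl7 (chr11:82045712-82047525) and Ccl8 (chr11:82115185-82116799) lie in a row on the plus strand, with 8.26 kb between the first pair and 67.7 kb between the second. Further along the chromosome are Ccl5 (chr11:83525778-83530518, minus), Ccl6 (chr11:83587882-83593087, minus), Ccl3 (chr11:83647844-83649355, minus) and Ccl4 (chr11:83662584-83664683, plus). Ccl3 and Ccl4 are 13.2 kb apart. Ccr1 (chr9:123962124-123968692, minus) and Ccr2 (chr9:124101950-124113557, plus) are 133 kb apart. Ccl2 overlaps Gm17268 and Ccl6 overlaps E230016K23Rik. Whether reads of these overlapping pairs were told apart was not tested.

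The deleted microRNA gene gives miR-34a-5p, whose seed (bases 2 to 8, in capitals) pairs with complementary letters in the 3′ untranslated region (3′ UTR) of a target. The mature sequence from RefSeq (GRCm38.p6, chr4:150068473-150068494, plus strand) and the only stretch of a member's 3′ UTR with a shorter match, in Ccr2 (GRCm38, chr9:124108050-124108079, plus strand, match in capitals), are shown so that they can be set side by side.
mmu-miR-34a-5p: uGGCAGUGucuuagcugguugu
Ccr2 3′ UTR: gtacctttgcaACTGCCtctttcctcatag

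None of the 9 members held the 7-base match CACTGCC in the 3′ UTR, that is 0 of 9, against 2997 of 21007 genes with a 3′ UTR (14.3%). The 6-base match ACTGCC was present in Ccr2, 1 of 9, against 29.9% of genes. In Ccr2 it lies at bases 1255 to 1260 of a 3′ UTR of 2701 bases, within 1 exon. The members' 3′ UTRs ran from 165 bases in Ccl8 to that length, beside a median of 961 bases over all genes, and a shorter 3′ UTR holds fewer matches of any kind. The search covered these letters only, in the coding transcript with the longest 3′ UTR of each gene. The study that reported these data lists Ccr1 among published miR-34a targets that were higher in macrophages of the deleted genotype. The Ccr1 3′ UTR searched here, of 1300 bases, held neither match. The reason for this difference was not tested.

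Promoters of Ccl8, Ccl6 and Ccr1 are shown as well, since Ccl8 was higher and Ccl6 lower in macrophages of the library labelled Mir34a_Mye_KO and Ccr1 was higher in neutrophils. Each runs from 250 bases before to 50 bases after the start of the gene (RefSeq, GRCm38.p6), which gives chr11:82114935-82115234 (plus) for Ccl8, chr11:83593038-83593337 (minus) for Ccl6 and chr9:123968643-123968942 (minus) for Ccr1. Capitals mark the motif matches found.
Ccl8 promoter: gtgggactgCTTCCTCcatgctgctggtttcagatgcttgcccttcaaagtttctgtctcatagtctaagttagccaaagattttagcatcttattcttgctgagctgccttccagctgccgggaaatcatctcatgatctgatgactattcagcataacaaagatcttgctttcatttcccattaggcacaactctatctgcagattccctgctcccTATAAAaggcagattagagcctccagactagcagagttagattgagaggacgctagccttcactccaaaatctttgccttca
Ccl6 promoter: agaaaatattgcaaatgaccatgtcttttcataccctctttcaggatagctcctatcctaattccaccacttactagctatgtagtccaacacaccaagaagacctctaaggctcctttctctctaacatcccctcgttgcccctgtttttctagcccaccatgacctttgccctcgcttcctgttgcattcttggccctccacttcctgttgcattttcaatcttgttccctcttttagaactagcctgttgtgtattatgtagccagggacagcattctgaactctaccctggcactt
Ccr1 promoter: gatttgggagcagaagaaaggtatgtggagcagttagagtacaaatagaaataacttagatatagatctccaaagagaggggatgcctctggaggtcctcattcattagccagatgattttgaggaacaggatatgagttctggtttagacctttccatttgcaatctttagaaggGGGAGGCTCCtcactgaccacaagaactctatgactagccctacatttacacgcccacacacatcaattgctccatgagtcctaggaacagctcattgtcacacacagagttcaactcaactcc

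Promoters of 5 of the 9 members were matched in the table used, those of Ccl3, Ccl6, Ccl8, Ccr1 and Ccr2. Both strands were searched for 6 motifs, kappaB (GGG and CC with any 5 bases between), AP-1 (TGA and TCA with any 1 between), the TATA box (TATAAA), the interferon response element (GAAA and GAAA with any 2 between), STAT (TTC and GAA with any 3 between) and PU.1 (GAGGAAG). The Ccl8 promoter held the TATA box 32 to 27 bases before the start, and the PU.1 letters on the opposite strand, read as CTTCCTC, 241 to 235 bases before it. In the Ccr1 promoter the kappaB letters lay 74 to 65 bases before the start. Of 32851 mouse promoters of the same length, 13.6% held the TATA box, 13.6% the PU.1 letters, 50.8% the kappaB letters, 7.81% those of AP-1, 8.3% those of STAT and 3.44% the interferon response element. The windows of Ccl3, Ccl6 and Ccr2 held none of the 6.

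Ccl2, which encodes the monocyte attractant MCP-1, was highest in mast cells in both libraries, at 6.28 and 10.0 UMIs per 10000 in the libraries labelled Mir34a_F/F and Mir34a_Mye_KO. Fibroblasts followed with 2.03 and 1.63, and macrophages had 1.01 and 1.43. Mast cells stood 3.10-fold and 6.14-fold above the next type, beyond counting error. In the library labelled Mir34a_F/F basophils were 1.61-fold (1.16 to 2.24) above macrophages. That basophil level rests on 39 UMIs in 48 cells, and 5 of the cells held 93.2% of it. In the other library no neighbours among fibroblasts, macrophages and basophils differed beyond counting error.

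Ccl7, which encodes the attractant MCP-3, had the same leading type. Mast cells had 3.83 and 5.28 UMIs per 10000, 3.89-fold and 4.29-fold above the next type. Macrophages had 0.517 and 1.23, and fibroblasts had 0.983 and 1.19. Fibroblasts led macrophages beyond counting error in the library labelled Mir34a_F/F, and in the other library these neighbours did not differ beyond it. Ccl8, which encodes the attractant MCP-2, was highest in macrophages instead, at 1.06 and 1.89, while mast cells had 0.0579 and 0.0575. The mast cell level of Ccl8 was below that of epithelial cells, at 0.0793 and 0.128. Mast cells thus carried Ccl2 and Ccl7 but not Ccl8 above the epithelial level.

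**Figure D1:**
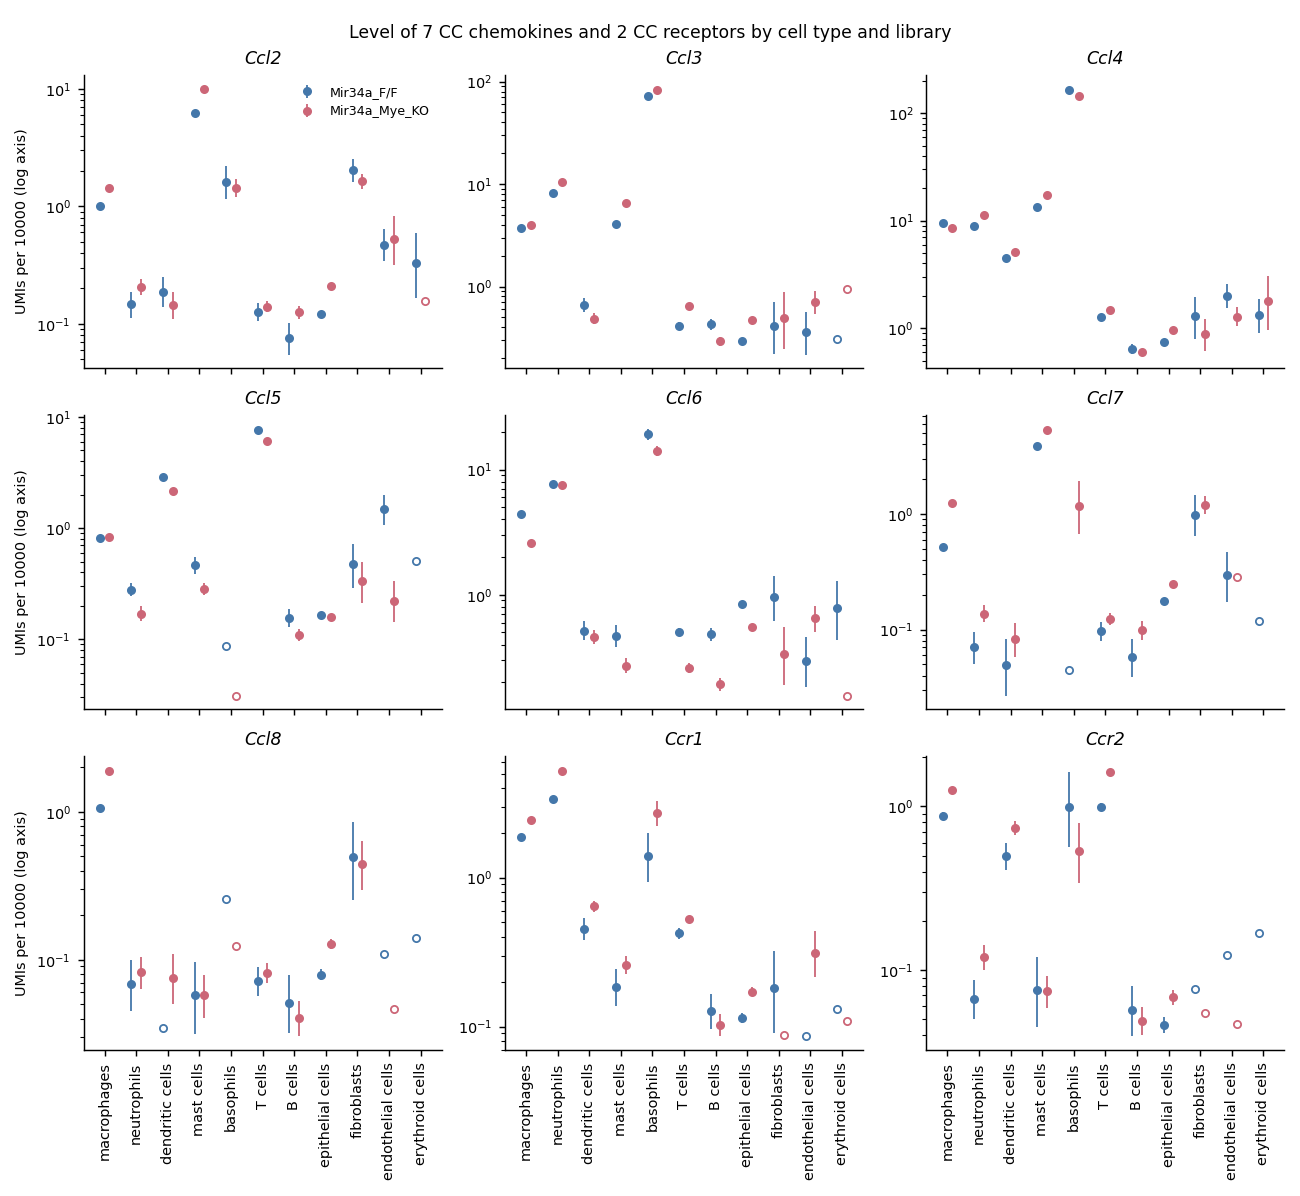
Level of each member (mean UMIs per 10000, logarithmic axis) in the 11 deposited cell types. Each point is 1 library, coloured by its genotype label, bars are 95% intervals for counting error, and hollow points rest on fewer than 10 UMIs. Ccl2 and Ccl7 peak in mast cells, Ccl8 in macrophages, Ccl3, Ccl4 and Ccl6 in basophils, Ccl5 in T cells and Ccr1 in neutrophils.

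Ccl3 and Ccl4, which encode the inflammatory chemokines MIP-1 alpha and MIP-1 beta, shared most of their order. In the small basophil group Ccl3 was at 72.0 and 83.8 UMIs per 10000 and Ccl4 at 165.8 and 143.2, at least 8.07-fold above the next type in either library. Ccl3 then followed in neutrophils (8.27 and 10.4), mast cells (4.05 and 6.54) and macrophages (3.72 and 3.99). For Ccl4 mast cells came next (13.3 and 17.2), while the order of macrophages (9.60 and 8.58) and neutrophils (8.87 and 11.3) was opposite in the 2 libraries. Each of these steps was larger than counting error.

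Ccl5, which encodes RANTES, was highest in T cells, at 7.68 and 6.10 UMIs per 10000. Dendritic cells followed with 2.86 and 2.17, and macrophages had 0.810 and 0.825. Endothelial cells had 1.47 and 0.223, on 41 and 24 UMIs. T cells were 2.68-fold and 2.81-fold above dendritic cells, beyond counting error. Ccl6, a chemokine found in rodents, was a gene of granulocytes and macrophages. It was at 19.2 and 14.1 in basophils, at 7.73 and 7.49 in neutrophils and at 4.46 and 2.58 in macrophages, and each of these neighbours differed beyond counting error.

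The receptors were apart from each other. Ccr1 was highest in neutrophils, at 3.38 and 5.18 UMIs per 10000, 1.81-fold and 1.91-fold above the next type. Macrophages (1.87 and 2.42) and basophils (1.39 and 2.70) did not differ beyond counting error in either library. Ccr2 was carried by T cells (0.992 and 1.63), macrophages (0.875 and 1.26) and dendritic cells (0.497 and 0.738). Neutrophils had 0.0669 and 0.120 of Ccr2, so the type with the most Ccr1 had little Ccr2. Basophils had 0.992 of Ccr2 in the library labelled Mir34a_F/F, a value that rests on 16 UMIs and did not differ from T cells beyond counting error.

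Shares of cells with a UMI were read beside those of epithelial cells. In macrophages, with a median of 7251.5 and 11227 UMIs per cell, Ccl8 was detected in 10.9% (9.60 to 12.2) and 23.6% (21.95 to 25.2) of cells, and after thinning in 4.33% and 9.02%. Epithelial cells, which are not a known source of Ccl8 and had a median of 5315.5 and 6623 UMIs, had a Ccl8 UMI in 3.80% and 5.62% of cells, and in 0.728% and 1.06% after thinning. Thinned shares in macrophages were also above the epithelial share for Ccl2 (7.02% and 9.17% against 1.19% and 1.93%), Ccl7 (3.92% and 7.17% against 1.56% and 2.38%) and Ccr2 (7.57% and 9.67% against 0.391% and 0.680%). The macrophage signal of these genes was therefore above the epithelial signal of the same libraries. Whether the epithelial signal is free RNA was not tested, and for Ccl7 the top 1% of epithelial cells held 43.3% and 35.9% of its level.

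The comparison of the genotypes asks whether macrophages and the other cells of tumors labelled Mir34a_Mye_KO carried other amounts of these chemokines and receptors. A ratio was taken for a gene in a cell type where the mean of both levels was at least 0.1 UMIs per 10000 and the libraries held at least 30 UMIs together and 10 each, and 1.5-fold was used as a limit of size. In macrophages all 9 members could be compared. Ccl7 and Ccl8 were past 1.5-fold higher in the library labelled Mir34a_Mye_KO and Ccl6 was past 1.5-fold lower. Of 8593 genes compared in macrophages, 1.69% were past the limit as higher and 3.18% as lower. The median log2 ratio was 0.37 over the members and -0.06 over all genes.

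Ccl7 had the largest macrophage ratio, with 1185 UMIs in 2208 cells and 5689 UMIs in 2601 cells. Its level was 0.517 and 1.23, a log2 ratio of 1.251 (1.14 to 1.37). Ccl8 had 2580 and 7163 UMIs, and its log2 ratio was 0.83 (0.74 to 0.93). The third monocyte attractant, Ccl2, and its receptor gene Ccr2 stayed under the limit here. Their log2 ratios were 0.51 (0.42 to 0.61) and 0.53 (0.42 to 0.63). Over other ways of processing they ran from 0.41 to 0.74 and from 0.42 to 0.86, past the limit at the upper end. The interval of each of these 4 genes was above 0, so the difference between the libraries was larger than counting error. How it compares with the spread between mice cannot be told from these data.

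Ccl6 went the other way in macrophages. Its level was 4.46 and 2.58 UMIs per 10000, a log2 ratio of -0.79 (-0.85 to -0.74), although the share of macrophages with a UMI was alike, at 62.3% and 60.5% of cells. After thinning the shares were 24.3% and 18.0%. Ccr1 had a log2 ratio of 0.37 and Ccl3 of 0.10, while Ccl4 was at -0.16 and Ccl5 at 0.02. The intervals of Ccr1 and Ccl3 lay above 0 and that of Ccl4 below it. The share of all genes with such intervals was not taken, so they are not read as a result about the members. Over other ways of processing the Ccl4 ratio ran from -0.22 to 0.25, so its direction was not kept.

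Epithelial cells moved as well. There Ccl2 (0.121 and 0.210, log2 ratio 0.80), Ccl8 (0.69) and Ccl3 (0.66) were past 1.5-fold higher and Ccl6 (-0.61) was past it as lower, that is 3 higher and 1 lower of 8 members, where 1.34% of 9009 genes were higher and 4.04% lower. The epithelial ratios of Ccl7 (0.48) and Ccl4 (0.37) were under the limit, and the latter was opposite in sign to that of macrophages. In epithelial cells the summed markers of macrophages were 2.63 and 3.86, those of mast cells 5.93 and 9.27 and those of B cells 2.00 and 7.65, the share of cells with the top marker score of their type was 71.5% and 49.7%, and the median mitochondrial share was 11.2% and 18.4%. The part of this shift in the macrophage ratios was not tested. Other signals moved with the macrophage ratios. The summed level of 6 mast cell markers in macrophages was 5.05 and 7.56 UMIs per 10000, with no marker at 0, against 559.6 and 600.7 in mast cells. The ratios were also taken without the macrophages that, after thinning, held a UMI of any mast cell marker, a choice made after the data were seen. They then stood at 0.67 for Ccl2, 1.21 for Ccl7 and 0.72 for Ccl8. In a second draw of the thinning they were 0.53, 1.11 and 0.78, so that Ccl2 was past 1.5-fold in 1 draw and not in the other. This filter took 30.1% and 42.2% of macrophages in the first draw, a different share from each library, and the part of mast cell RNA in the ratios was not tested. The summed level of 6 B cell markers in macrophages was 1.69 and 5.96, that of erythroid markers 2.57 and 0.09 and that of epithelial markers 23.4 and 17.9. The median mitochondrial share of macrophages was 2.01% and 3.75%. The part of these shifts in the ratios was not tested. Scaling also mattered for the background. When immunoglobulin, mitochondrial and ribosomal RNA-like genes were left out of the totals, the median over all genes in macrophages was 0.06, and of the genes past the limit 58.6% were higher instead of 34.7%.

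**Figure D2:**
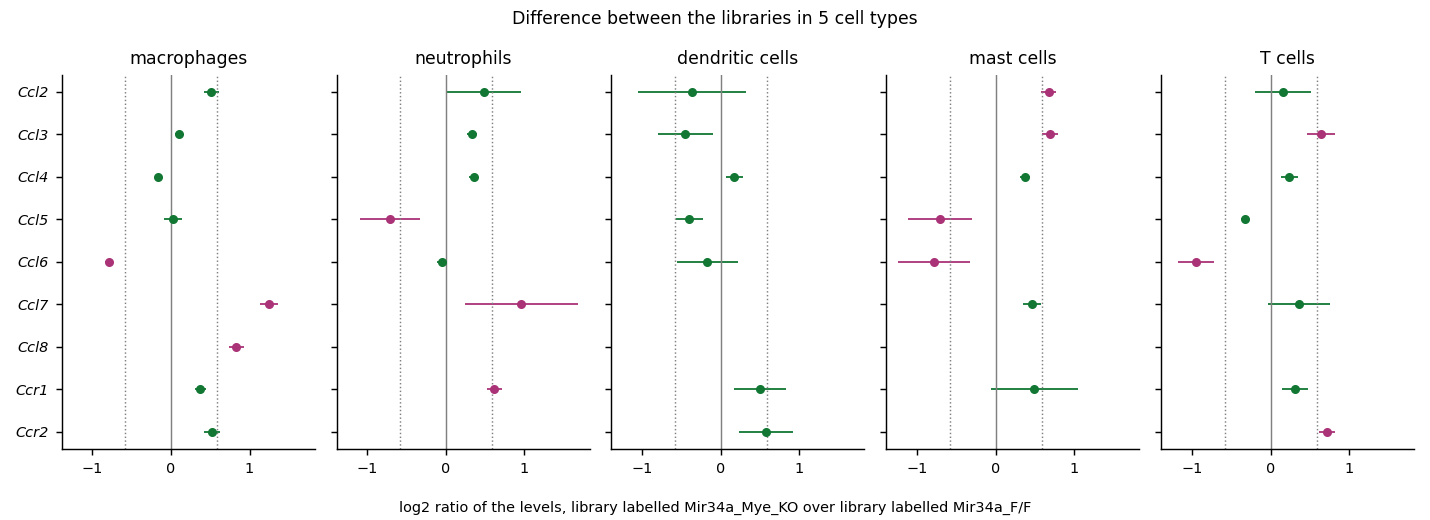
Log2 ratio of the level in the library labelled Mir34a_Mye_KO over that labelled Mir34a_F/F, for each member in the cell types where it could be compared. Bars are 95% intervals for counting error, dotted lines mark 1.5-fold, and purple points are past it. Ccl7 and Ccl8 in macrophages lie to the right of the limit and Ccl6 lies to the left of it.

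In neutrophils 7 members could be compared. Of these, Ccr1 and Ccl7 were past 1.5-fold higher and Ccl5 was past it as lower, where 5.4% of 7612 genes were higher and 11.4% lower. The median was 0.35 over the 7 members and -0.13 over all genes, and the latter was -0.04 with the totals that leave out immunoglobulin, mitochondrial and ribosomal RNA-like genes. With those totals 50.7% of the neutrophil genes past the limit were higher, against 32.2% with all genes in the totals. Ccr1 had 1752 and 4727 UMIs, and after thinning its levels were 3.31 and 4.92 UMIs per 10000, under the limit. At full depth its log2 ratio was 0.62 (0.53 to 0.71). Neutrophil markers moved with it in both directions, since Csf3r (3.72 and 6.13), Cxcr2 (1.76 and 2.58) and Mmp9 (3.74 and 5.41) were higher in the library labelled Mir34a_Mye_KO and S100a8 (610.3 and 426.1), S100a9 (865.6 and 529.1) and Retnlg (105.1 and 74.2) were lower. In neutrophils the summed level of 6 B cell markers was 1.72 and 5.71 and that of 6 epithelial markers 33.7 and 20.7. The part of these shifts in the Ccr1 ratio was not tested. A Ccr1 UMI was found in 65.6% and 83.8% of neutrophils, and after thinning in 25.9% and 35.4%, against 0.801% and 1.64% of epithelial cells. Ccl3 and Ccl4, at 0.33 and 0.35, were under the limit with intervals above 0. Ccl7 in neutrophils, at 0.0707 and 0.138 UMIs per 10000, was below the epithelial levels of 0.177 and 0.247, and is not read as expression. The Ccl5 levels of 0.280 and 0.171 were near the epithelial levels of 0.165 and 0.159.

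In mast cells 7 members could be compared, and Ccl2 and Ccl3 were past 1.5-fold higher. Ccl5 and Ccl6 were past it as lower, beside 3.78% of 8361 genes higher and 14.3% lower. The median was 0.47 over the members and -0.12 over all genes. Ccl2 had 1575 UMIs in 732 mast cells and 7843 UMIs in 785, and its log2 ratio was 0.67 (0.58 to 0.76). Ccl3, at 4.05 and 6.54 UMIs per 10000, had a log2 ratio of 0.69 (0.58 to 0.80). Ccl7 (0.47) and Ccl4 (0.37) were higher by less than the limit. Markers of other types in mast cells moved too, with B cell markers at 2.04 and 6.13, epithelial markers at 29.2 and 15.2 and neutrophil markers at 9.15 and 6.77, and their part was not tested. The mast cell Ccl6 levels, 0.471 and 0.272, were below those of epithelial cells (0.839 and 0.551).

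In T cells 8 members could be compared, and Ccr2 and Ccl3 were past 1.5-fold higher while Ccl6 was past it as lower. The shares over 8928 genes were 1.66% higher and 7.76% lower, and the medians were 0.27 over the members and -0.08 over all genes. Ccr2, with 1268 and 3890 UMIs, had a log2 ratio of 0.72 (0.61 to 0.82). Ccl3 in T cells was at 0.416 and 0.649, a log2 ratio of 0.64, and in epithelial cells at 0.296 and 0.467, a ratio of 0.66. The top 1% of T cells held 38.5% and 43.5% of the Ccl3 level. The T cell ligand Ccl5 was lower, at -0.33 (-0.38 to -0.29). In T cells B cell markers summed to 2.21 and 5.03, neutrophil markers to 9.68 and 5.45 and epithelial markers to 30.8 and 17.0, and their part was not tested. Ccl6 in T cells, at 0.505 and 0.261, was below the epithelial level in both libraries, as it was in B cells (0.481 and 0.192). In dendritic cells none of the 7 members compared was past the limit in either direction, 0 of 7, where 4.97% of 8277 genes were higher and 6.49% lower. Their median was -0.17, and 0.01 over all genes. Ccr2 in dendritic cells had a log2 ratio of 0.57 (0.23 to 0.91).

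The origin of each ligand was taken as the share of all UMIs of the gene in a library that came from each cell type. It depends on how many cells of a type were captured and on their depth. Median depth in the library labelled Mir34a_Mye_KO was higher by 2.865-fold in mast cells, 1.785-fold in neutrophils, 1.548-fold in macrophages and 1.246-fold in epithelial cells. A change of share between the libraries is therefore not read as a change of source. Macrophages gave 28.9% of the Ccl7 UMIs in the library labelled Mir34a_F/F and 46.5% in the other, and mast cells gave 22.2% and 33.1%. Epithelial cells gave 42.8% and 14.5% of Ccl7, while their Ccl7 level was 0.177 and 0.247. Although their level was low, they were 11614 and 9865 of the cells. For Ccl2, macrophages gave 39.5% and 36.1%, mast cells 31.0% and 49.5% and epithelial cells 20.3% and 7.43%.

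Macrophages gave 78.7% and 86.4% of Ccl8 UMIs, and T cells gave 66.5% and 68.7% of those of Ccl5. Ccl6 came from macrophages (43.9% and 40.9%), neutrophils (14.9% and 32.7%) and epithelial cells (35.3% and 18.1%). The neutrophil level of Ccl6 was 7.73 and 7.49, so its larger share there did not come with a higher level. Of the receptors, Ccr1 UMIs came from macrophages (53.6% and 55.4%) and neutrophils (24.97% and 26.7%), and Ccr2 UMIs from macrophages (45.2% and 48.1%) and T cells (38.0% and 39.9%). Macrophages were thus the largest single source for both receptor genes and for Ccl3, Ccl4, Ccl6 and Ccl8 in either library.

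**Figure D3:**
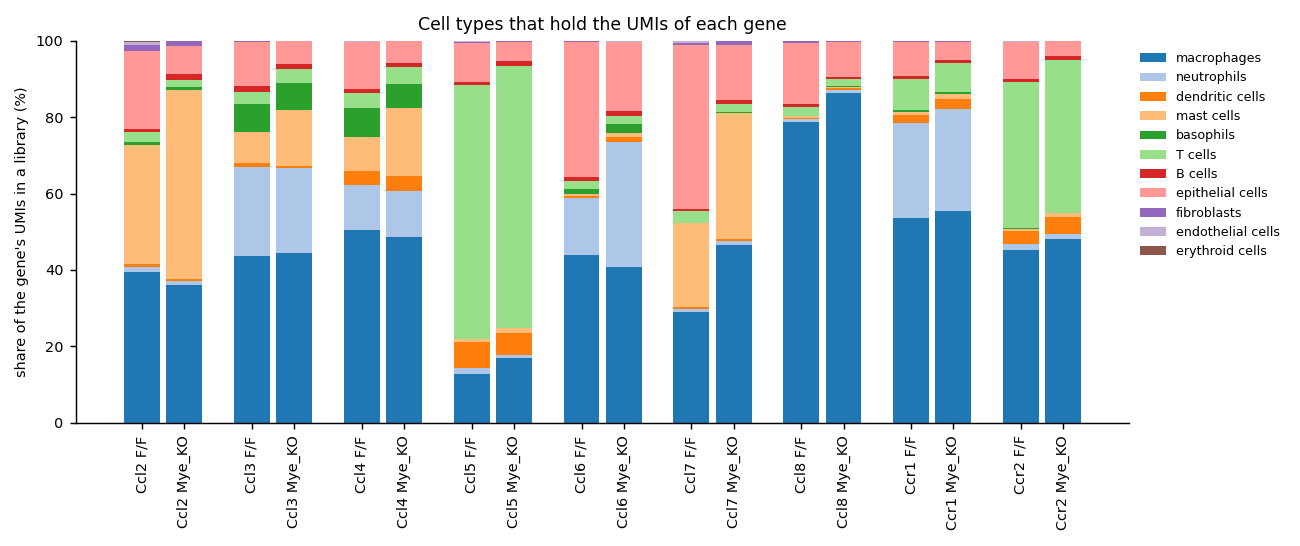
Share of all UMIs of each member (percent) that came from each cell type, with 1 bar for each library. Macrophages fill most of the Ccl8 bars and T cells most of the Ccl5 bars. The epithelial share of every member is smaller in the library labelled Mir34a_Mye_KO. Shares depend on cell number and depth as well as on level.

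Macrophages were not alike in these genes. The 10% of macrophages with the most Ccl8 held 99.6% and 88.9% of its level, and the same share held 97.5% and 90.1% for Ccl7 and 84.0% and 76.7% for Ccl2. For Ccr1 the top 10% held 41.2% and 35.6%, less than for any of the ligands. The shares were 56.3% and 52.0% for Ccl6, 61.7% and 56.1% for Ccl3 and 68.0% and 63.0% for the other receptor, Ccr2. A gene detected in few cells has a high share in any case. To place the members among macrophage states, cells were split by whether a marker was found after thinning, and the levels were then read at full depth. The markers were Ly6c2, found in monocytes newly arrived from blood, Mrc1 and C1qa, found in resident and mature macrophages, and Arg1 and Spp1, found in macrophages of wounds and tumors. Nos2, a gene of inflammatory macrophages, and Cdk8, a kinase gene of most cell types, were split in the same way and are shown in the plot of macrophage states.

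Ly6c2 cells carried the receptor Ccr2. Its level was 2.58 with and 0.720 without Ly6c2 in the library labelled Mir34a_F/F, and 4.08 and 1.07 in the other. Ccl2 was also higher with Ly6c2, at 3.16 against 0.816, and at 3.73 against 1.28. Ccl8 was lower there, at 0.123 against 1.15, and at 0.164 against 2.01. Ccl7 had 0.213 against 0.542, and 0.385 against 1.29.

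For Ccl7, Ccl8 and Ccr2, the Mrc1 cells showed the opposite layout. Ccl8 was at 3.63 with and 0.682 without Mrc1 in the library labelled Mir34a_F/F, and at 4.98 and 1.12 in the other. Ccl7 was at 1.65 against 0.346, and at 2.67 against 0.876, whereas Ccr2 was lower in Mrc1 cells, at 0.372 against 0.950, and at 0.643 against 1.41. Ccl2 was not lower with Mrc1, at 1.16 against 0.990, and at 1.89 against 1.32. Splitting by C1qa, a complement gene, gave 2.10 against 0.130, and 2.95 against 0.477, for Ccl8. Thus Ccl2 and Ccr2 were higher in the Ly6c2 cells, and Ccl8 in the Mrc1 and C1qa cells, in both libraries. Ccl7 lay with Ccl8 in each of these splits.

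Ccl6 was higher in the cells with Arg1, Spp1 or Ly6c2 than in those without. With Arg1 it was at 8.06 against 3.60, and at 4.47 against 2.38. With Spp1, the osteopontin gene, it was at 7.76 against 3.52, and at 3.91 against 2.39. With Ly6c2 it was at 6.61 against 4.30, and at 5.97 against 2.36, the highest of the 3 states in the library labelled Mir34a_Mye_KO. Arg1 was found in 19.9% and 9.75% of macrophages, Spp1 in 22.9% and 13.0%, Ly6c2 in 8.34% and 6.24%, and Mrc1 in 12.9% and 19.9%. These 3 states were thus found in a smaller share of macrophages in the library labelled Mir34a_Mye_KO. The Mrc1 state, with more Ccl7 and Ccl8 per cell, was found in a larger share. More Ccl6 was not particular to the 3 states. In the library labelled Mir34a_F/F it was also higher with Mrc1 (4.86 against 4.435) and with C1qa (5.08 against 3.96). In the other library it was lower with Mrc1 (2.33 against 2.65) and with C1qa (2.22 against 3.07).

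**Figure D4:**
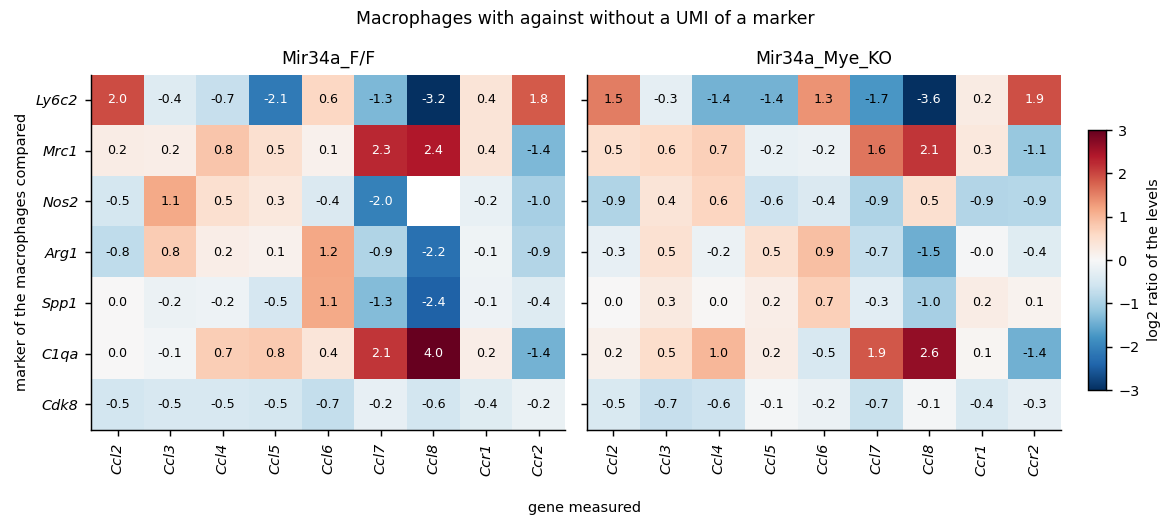
Macrophage states, shown as the log2 ratio of the level in macrophages with a marker over those without it (colour, ending at 3 in either direction), with markers and members as the axes and 1 panel for each library. The blank square rests on fewer than 10 UMIs. Ccl8 and Ccl7 are high with Mrc1 and C1qa and low with Ly6c2, and Ccr2 shows the opposite pattern.

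The ratio between the libraries was also taken within each state. For Ccl7 it was 0.69 (0.52 to 0.86) in macrophages with Mrc1 and 1.34 (1.19 to 1.49) in those without. For Ccl8 it was 0.46 (0.32 to 0.59) with and 0.72 (0.59 to 0.85) without Mrc1. With Mrc1 found at the cells' own depth instead, the ratios were 1.10 with and 0.78 without for Ccl7, and 0.33 with and 2.14 (1.73 to 2.54) without for Ccl8. Both genes were higher in the library labelled Mir34a_Mye_KO on both sides of the split either way, but the size of the ratio on each side depended on how Mrc1 was found. Ccl6 was lower with Spp1, at -0.99 (-1.10 to -0.88), and without it, at -0.56 (-0.63 to -0.49). With Ly6c2 the Ccl6 ratio was -0.15 (-0.28 to -0.01), nearer to no difference than the -0.87 (-0.93 to -0.80) without. It was -1.06 with and -0.74 without Mrc1, and -1.20 with and -0.365 without C1qa. Ccr2 was 0.66 with Ly6c2 and 0.58 without.

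Some ligands were detected more often in cells that also held another ligand than in cells that did not. After thinning, Ccl7 was detected in 13.0% of macrophages with Ccl2 and 3.24% of those without in the library labelled Mir34a_F/F, and in 23.1% and 5.56% in the other. In mast cells the shares were 28.8% and 4.65%, and 30.7% and 7.17%. Ccl4 was detected in 59.3% of macrophages with Ccl3 and 24.3% of those without, and in 58.0% and 23.2%. Ccr2 was less often found beside Ccl8. In the library labelled Mir34a_Mye_KO Ccr2 was found in 2.14% of macrophages with Ccl8 (5 of 234 cells) and in 10.4% of those without. In the library labelled Mir34a_F/F 95 macrophages held Ccl8 and 166 held Ccr2, and no cell held both. For Ccl2 the shares ran the other way. In the library labelled Mir34a_F/F Ccr2 was in 11.04% of macrophages with Ccl2 (17 of 154 cells) and 7.31% of those without. In the other library it was in 13.4% (32 of 238 cells) and 9.29%. No interval was taken for these shares, so whether they differ beyond counting error is not given.

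T cells, dendritic cells and epithelial cells were also split by markers of subsets, and the genes used to split them were chosen after the values were seen. T cells with a UMI after thinning of Cd8a or Cd8b1, which encode the co-receptor of cytotoxic T cells, had Ccl5 at 57.1 against 6.44 in other T cells, and at 38.2 against 5.24 in the library labelled Mir34a_Mye_KO. Those with Gzma, a cytotoxic granule gene, had Ccl5 at 58.5 against 6.37, and at 50.8 against 4.56. Ccl4 was also higher with Gzma, at 9.08 against 1.01, and at 11.5 against 1.15. T cells with Foxp3, the regulatory T cell factor, or with the cytokine genes Il17a or Il17f had low Ccl5, at 1.51 and 1.245 for Foxp3 and 1.68 and 1.29 for Il17a or Il17f. Per cell, Ccl5 was thus highest in the cytotoxic cells in both libraries. After thinning 85 and 68 cells had Cd8a or Cd8b1, and these held 21.2% and 17.2% of the T cell UMIs of Ccl5. Thinning leaves out marker UMIs, so cells without one can still be cytotoxic. The number of cytotoxic cells and their full share of Ccl5 are therefore not given by these values.

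The T cell receptors had another layout. Ccr2 was at 2.28 with and 0.938 without Foxp3 in the library labelled Mir34a_F/F, and at 4.67 and 1.40 in the other. After thinning, Foxp3 was found in 5.23% and 7.12% of T cells. Both sides of the split had more Ccr2 in the second library. Ccr1 was higher in T cells with Il17a or Il17f, at 0.817 against 0.342, and at 1.01 against 0.424.

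Dendritic cells with Ccr7, the receptor of cells that migrate to lymph nodes, had Ccl5 at 7.42 against 1.24 in those without, and at 4.92 against 1.30. They held 74.3% and 81.3% of the dendritic Ccl5 UMIs. Ccr2 was lower in them in the library labelled Mir34a_Mye_KO, at 0.216 against 0.901, and in the other it was at 0.141, from 8 UMIs, against 0.626. Ccl4 was lower in them as well, at 0.411 against 6.00, and at 1.87 against 6.09. Cells with Ccr7 thus had more Ccl5 and less Ccl4 and Ccr2.

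Epithelial Ccl6 was higher in cells with genes of secretory lineages, and no other epithelial subset was compared. Cells with Reg4, a gene of deep crypt secretory cells, had Ccl6 at 4.61 against 0.526, and at 2.04 against 0.427. After thinning, cells in which Reg4 was found were 6.70% and 7.10% of epithelial cells. They held 58.3% and 33.3% of the epithelial UMIs of Ccl6. The 1% of epithelial cells with the most Ccl6 had 212.2 UMIs per 10000 of Defa24 and 177.1 of Lyz1 in the library labelled Mir34a_F/F, against 7.04 and 6.39 in all epithelial cells. In the other library these levels were 84.8 and 63.5 against 5.29 and 5.37. Both are Paneth cell genes, an antimicrobial defensin and a lysozyme, and both were named after the values were seen. Epithelial cells are therefore not a blank background for Ccl6, and the epithelial level without Reg4 is the lower reference for this gene. Ccl2, Ccl5, Ccl7 and Ccr2 differed by less than counting error between epithelial cells with and without Reg4. In the library labelled Mir34a_Mye_KO the log2 ratio of cells with over cells without Reg4 was also above counting error for Ccl8 (0.74), Ccr1 (0.63), Ccl3 (0.56) and Ccl4 (0.50), whereas in the other library the intervals of these 4 genes spanned 0.

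**Figure D5:**
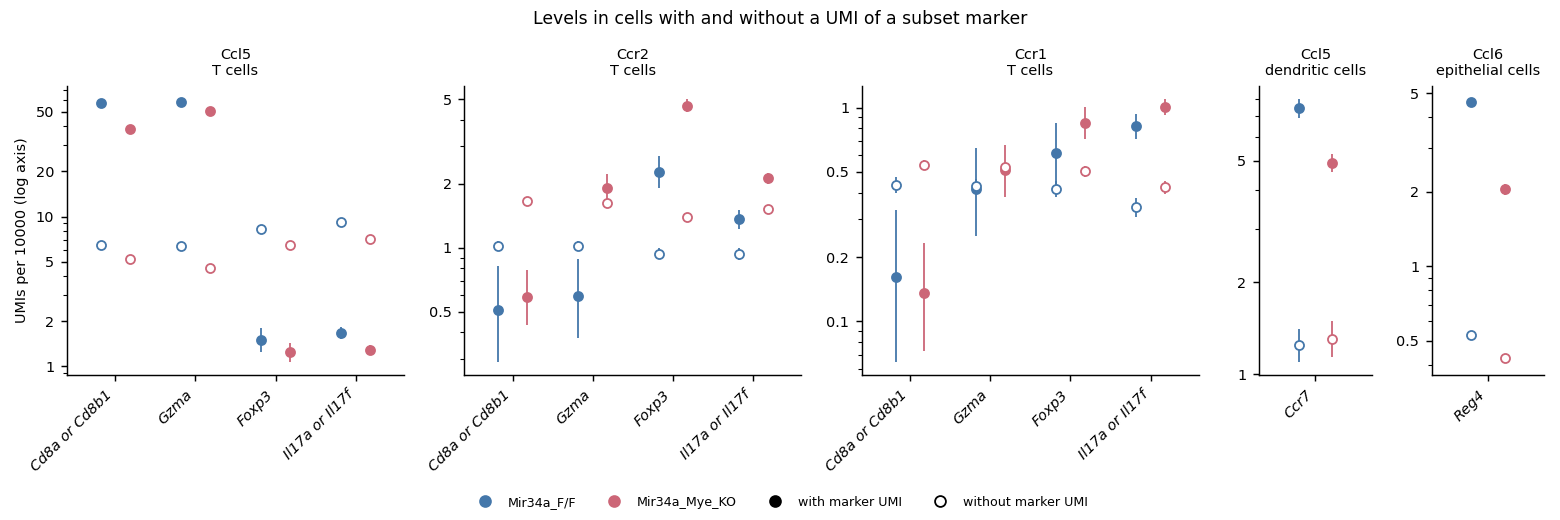
Levels (mean UMIs per 10000, logarithmic axis) of members in cells with and without the marker named, for T cells, dendritic cells and epithelial cells, with the libraries side by side. Filled points are cells with the marker, hollow points are cells without it, and bars are 95% intervals for counting error. Ccl5 is high in T cells with Cd8a or Cd8b1 or with Gzma and in dendritic cells with Ccr7, Ccr2 in T cells with Foxp3, and Ccl6 in epithelial cells with Reg4.

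The genes most like each member were ranked by Pearson's r of the log2 level over 22 points, that is 11 cell types in 2 libraries, among 6519 genes. The points share libraries and depth, so r is a description. Ccl3 and Ccl4 were closest to each other (r = 0.951), with Anxa11os next for both. For Ccl7 the closest gene was Ccl2 (r = 0.890), and for Ccl2 it was Gm17268 (r = 0.910), the gene that overlaps it. Ccl8 was closest to Inhba (0.887), Slc7a2 (0.874) and Selenop (0.871). Ccl6 was closest to Gsr (0.971) and to the neutrophil attractant Cxcl2 (0.960). Ccl5 was nearest Aebp2 (0.911), Ccr1 nearest Rnf149 (0.959) and Ccr2 nearest the interleukin 7 receptor gene Il7r (0.916). Among the near genes named here, only Gsr, Cxcl2, Aebp2 and Il7r were also in the top 3 by Spearman's rank correlation.

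Of 30 other chemokine and chemokine receptor genes, 10 could be compared in macrophages, with 0 past 1.5-fold higher and 3 past it as lower, and a median of 0.07. The lower genes were Ccl9 (2.42 and 1.61, log2 ratio -0.59), Ccl17 (0.245 and 0.137, -0.84), a ligand of CCR4, and the eosinophil attractant Ccl24 (2.33 and 1.20, -0.95). Ccl9 lies in the same cluster as Ccl6. The decoy-like receptor Ccrl2 was at 2.69 and 2.33 in macrophages and at 3.43 and 5.11 in neutrophils. In neutrophils 0 of 6 genes compared were past the limit. In dendritic cells 2 of 10 were higher, Ccl17 (2.20 and 3.98) and the gut homing receptor Ccr9 (1.12 and 1.92), and 1 was lower. In mast cells the counts were 2 higher and 1 lower of 6, and in T cells 2 higher and 1 lower of 12. Just under the limit in macrophages was Ccl12, another monocyte attractant, named here after its values were seen. It was at 0.797 and 1.19, a log2 ratio of 0.58 (0.47 to 0.69).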

How the data were processed

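Tumor cells were counted with Cell Ranger 7.2.0 on mm10 per the labels (10x 3′ libraries). Per the methods of the study, the authors kept cells by expressed mRNAs and a mitochondrial share under 25%, removed doublets with Scrublet, normalized with Seurat and named 11 cell types. The authors deposited each gene's UMIs scaled to a total of 10000 in the cell, as the natural log (ln) after adding 1. The exponential gave back whole UMIs, with a largest deviation of 1.5e-10. In the matrix 6600 cells (17.0%) had 25% or more mitochondrial UMIs and were kept. The deposited types were used, and 69.3% of cells scored highest for the markers of their type, with the lowest share in epithelial cells of the library labelled Mir34a_Mye_KO (49.7%).

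Levels are means over cells. Intervals are exact Poisson for UMI sums, exact binomial for shares and a weighted Poisson approximation for ratios of levels. All are at 95% and for counting error only. Those of ratios were checked on data simulated with the same Poisson model, in which all cells of a library shared the same rate. That check does not cover the uneven spread of a gene over cells, which the intervals leave out. With 1 library per genotype no test was made, and a size limit of 1.5-fold was used. Cells were thinned to 1000 UMIs with a fixed seed. Genes named beside the members were those of the fixed list of 30 with a level of at least 1 in a type (1 of them is not reported here), and the 3 most alike to each member by r, of which some are given. The members and lists were chosen with earlier results of these data known. Python 3.11.15, numpy 2.4.6, scipy 1.17.1, pandas 2.3.3 and matplotlib 3.10.9 were used. Sequences are from RefSeq (GRCm38.p6) and the GENCODE annotation of GRCm38. Alternatives covered depth, cell filters, cell type calls, totals, summed UMIs, the top 1% of cells, the epithelial level, the limits and macrophages with mast cell markers.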

Additional observations from a re-analysis of the deposited data

Results flagged for a closer look

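Ccl6 differed in direction between cell types. Its log2 ratio of the library labelled Mir34a_Mye_KO over that labelled Mir34a_F/F was 1.12 in endothelial cells, from 20 and 72 UMIs, with a counting interval from -0.07 to 2.31 that spans 0. In macrophages and in mast cells it was -0.79, in T cells -0.95, in B cells -1.33, in epithelial cells -0.61 and in fibroblasts -1.50. The Ccl6 levels of mast, T and B cells were below the epithelial level. At full depth the Ccr2 ratio was 0.72 in T cells and -0.89 in basophils, the latter from 16 and 24 UMIs with an interval from -1.85 to 0.06. In T cells Ccr2 was under 1.5-fold after thinning. With 1 library per genotype, the difference between the cell types was not tested for either gene. Ccl5 in endothelial cells had a log2 ratio of -2.73 (-3.68 to -1.78), from 41 and 24 UMIs in 116 and 107 cells. Of 6956 endothelial genes compared, 21.4% were past 1.5-fold lower.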

How the results depend on the processing

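In macrophages, where 2 members were past 1.5-fold higher and 1 lower, 4 were higher with the reduced totals described in the report, 5 with UMIs summed over cells, 4 without cells holding a mast cell marker (added after the data were seen, and without Ccl2 in a second draw of the thinning, where it was at 0.53), 5 at a lower limit of size and 1 at 2-fold, where 0 were lower. In neutrophils, with 2 higher and 1 lower, 4 were higher with the reduced totals, 5 at the lower limit and 0 at 2-fold. There 1 was higher without the top 1% of cells, with the epithelial level subtracted, with a pseudocount of 0.1 and at a minimum level of 0.5. After thinning 1 was higher as well, and it was not Ccr1, whose levels were then 3.31 and 4.92, under the limit. In neutrophils 0 were lower without the top 1%, with the pseudocount, at 2-fold, at the minimum level of 0.5 and in cells whose top marker score is their type. Over 10 alternatives the macrophage log2 ratio ran from 1.11 to 1.53 for Ccl7, 0.66 to 1.39 for Ccl8, 0.41 to 0.74 for Ccl2, 0.42 to 0.86 for Ccr2 and -1.12 to -0.68 for Ccl6, while Ccl4 (-0.22 to 0.25) and Ccl5 (-0.24 to 0.11) spanned 0. Direction turned for Ccl2 in B cells (-0.25) and Ccl3 in endothelial cells (-0.14) without mast marker cells, and for Ccl4 in endothelial cells with summed UMIs (0.59) and without the top 1% (0.035). Of 125 ratios of macrophages with over without a marker, 96 kept their direction when the marker was found after thinning instead of at own depth. Those that turned include the split by Cdk8 for Ccl3 (-0.70), Ccl4 (-0.63) and Ccr1 (-0.45) in the library labelled Mir34a_Mye_KO and for Ccl7 (-0.25) in the other. The cause was not tested. The share of all genes past 1.5-fold higher moved as well. In macrophages it went from 1.69% to 2.77% with the reduced totals and 3.97% with summed UMIs. In neutrophils it went from 5.4% to 7.87% with the reduced totals. At the other settings no share over all genes was taken. The member counts at those settings therefore have no background and are not read as a result about the members. Direction was kept in 47 of 52 ratios after thinning, 63 of 70 with summed UMIs and 45 of 52 without mast marker cells. Without the types under 100 cells Ccl3 and Ccl6 were highest in neutrophils, Ccl4 in mast cells and Ccr2 in T cells. No replicate could be left out with 1 library per genotype, and the small number of cells limits endothelial cells, fibroblasts and basophils. No paired analysis was possible because each genotype has 1 library and no test was made.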

Other observations

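Chemokine genes outside the members had their own places in these tumors. Ccl1, a ligand of CCR8, was highest in mast cells, at 4.10 and 4.14 UMIs per 10000 in the libraries labelled Mir34a_F/F and Mir34a_Mye_KO, so mast cells carried Ccl1 beside Ccl2 and Ccl7. The lymphoid chemokine Ccl21a was highest in endothelial cells (5.03 and 2.90), and the scavenging receptor Ackr1 was found there too (1.32 and 1.26). Ccl22, a ligand of CCR4, was at 4.19 and 4.80 in dendritic cells, where Ccr7 was at 7.13 and 6.13. Cx3cr1, the fractalkine receptor gene of macrophages, was at 2.47 and 2.95 in macrophages and at 2.08 and 2.55 in mast cells. These values have no replicate check.

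The 1% of epithelial cells with the most Ccl7 had Mcpt1, a mast cell protease gene, at 3.48 and 15.7 UMIs per 10000, against 3.10 and 4.37 in all epithelial cells. Isg15, an interferon-induced gene, was at 2.23 and 1.24 in the same cells, against 0.755 and 0.732 in all.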
